A study of Macaca mulatta and Mus musculus and Rattus norvegicus with 12 samples.

Results

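The cytosolic ribosomal protein genes encode the protein part of the ribosome outside mitochondria, and they were picked from each species' table by symbol alone, as RPL or RPS followed by digits and at most 1 letter A, X or L, together with RPSA, RPLP0, RPLP1 and RPLP2. The rule took 81 of 38639 gene rows in mouse, 81 of 35487 in rat and 19 of 29199 in rhesus macaque, which makes 181 rows of 103325 and 83 distinct symbols, of which 18 had a row in all 3 species. RNA was sequenced from bone of the calvaria, the roof of the skull, and of the tibia, to compare a bone that carries little load with one that carries much. Mouse libraries (C57BL6, 4 month) were M4 and M8 for calvaria and M5 and M7 for tibia, rat libraries (Wistar, 6 month) were R1 and R3, and macaque libraries were G1, G3 and T1 for calvaria and G2, G4 and T2 for tibia, with no treatment in any group. The macaque labels give an age of 4 to 6 month and the methods give the same numbers in years. Rodent libraries were pools of several animals and macaque libraries came from single animals, and since no label says which libraries came from separate dissections the p-values measure the spread between these libraries.

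Ribosomal proteins fall into those of the small subunit (RPS, RPSA), which decodes the mRNA, and those of the large subunit (RPL, RPLP), which joins the amino acids. A eukaryotic ribosome holds 1 copy of most of them, so that their mRNAs are usually made in near equal and very large amounts. Their mRNAs begin with a run of pyrimidines, the 5' TOP motif, through which the mTOR kinase and LARP1 set their translation. The genes are short, and their mRNAs have been copied back into mammalian genomes many times, which left pseudogenes and a few working retrogenes of near identical sequence.

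Reads on named genes ran from 12233256 to 16826535 per library in the rodents and from 7951585 to 10342459 in macaque. Values below are normalised CPM, read counts divided by library size and, in mouse and macaque, by trimmed mean of M values (TMM) factors, and log2 fold changes are of calvaria over tibia. The samples are labelled osteocyte, and the osteocyte list (DMP1, MEPE, PHEX, SOST, FGF23, PDPN) had reads for every gene with a row in mouse and macaque and for all but 1 in rat. In macaque only 3 of these 6 genes had a row, with log2 fold changes from -1.40 to 0.22 and 1 of 3 above 0. In mouse 1 of 6 lay above 0. The summed level of the list was 4842 to 5525 CPM in macaque calvaria and 7266 to 16969 in tibia. It was 1042 to 1852 and 7645 to 10364 in mouse, and 500.2 and 7242 in rat. Of its genes, 1 of 3 was called higher in tibia in macaque, none was called in mouse, and 4 of 5 lay past a log2 ratio of 2 towards tibia in rat. Transcripts of marrow cells were also present, and their levels are given beside the results they move with. In whole tissue, fewer cells of a type and less RNA per cell cannot be told apart.

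The count on a ribosomal protein symbol was often only part of the count on that protein. In macaque, 779 further rows, nearly all with LOC symbols, named a cytosolic ribosomal protein, and 58 of 77 proteins had such rows only, so that the 19 members held 14.6% of the reads that named a ribosomal protein. The corresponding numbers were 59 further rows and 84.3% in mouse, and 180 further rows and 63.4% in rat. Of the proteins with a symbol row, the other rows held more reads than the symbol in 10 of 19 proteins in macaque, 10 of 81 in mouse and 29 of 81 in rat. RPS6, the small subunit protein phosphorylated by S6 kinase, had no symbol row in macaque and 226198 reads on a single LOC row. RPS9, which acts in decoding accuracy, was listed at 0 in both rat libraries, where a LOC row for the same protein held 6706 reads.

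The mouse genes show what these rows share. The coding sequences below are from GENCODE vM21 (GRCm38, the build of the mouse table) and are shown because Rps27 and its retrogene Rps27rt cannot be told apart by a coding read, while the paralogues Rps27l and Rpl39l can. Capitals mark bases that differ from Rps27 or, for Rpl39l, from Rpl39. Rps27 lies on the minus strand at chr3:90212522-90213651, Rps27rt on the minus strand at chr9:114982366-114982739, Rps27l on the plus strand at chr9:66946086-66949516, Rpl39 on the minus strand at chrX:37082520-37085402 and Rpl39l on the plus strand at chr16:10170226-10174911.
Rps27: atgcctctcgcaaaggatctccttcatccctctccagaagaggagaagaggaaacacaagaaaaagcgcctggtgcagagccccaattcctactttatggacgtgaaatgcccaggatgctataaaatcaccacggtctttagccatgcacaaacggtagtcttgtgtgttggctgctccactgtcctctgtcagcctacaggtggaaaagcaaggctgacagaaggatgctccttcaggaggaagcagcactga
Rps27rt: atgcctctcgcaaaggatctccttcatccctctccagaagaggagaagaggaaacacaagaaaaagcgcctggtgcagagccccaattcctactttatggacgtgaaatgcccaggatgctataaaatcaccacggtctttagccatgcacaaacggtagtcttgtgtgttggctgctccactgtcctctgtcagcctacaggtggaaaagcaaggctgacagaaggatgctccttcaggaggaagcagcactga
Rps27l: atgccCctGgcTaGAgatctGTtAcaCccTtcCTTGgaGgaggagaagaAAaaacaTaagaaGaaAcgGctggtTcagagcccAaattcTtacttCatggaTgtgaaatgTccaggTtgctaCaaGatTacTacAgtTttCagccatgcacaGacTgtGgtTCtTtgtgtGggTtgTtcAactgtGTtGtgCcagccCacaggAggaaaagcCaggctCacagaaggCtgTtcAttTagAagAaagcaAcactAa
Rpl39: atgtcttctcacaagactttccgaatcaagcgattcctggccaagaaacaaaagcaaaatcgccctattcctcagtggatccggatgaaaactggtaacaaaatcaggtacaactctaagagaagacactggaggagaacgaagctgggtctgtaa
Rpl39l: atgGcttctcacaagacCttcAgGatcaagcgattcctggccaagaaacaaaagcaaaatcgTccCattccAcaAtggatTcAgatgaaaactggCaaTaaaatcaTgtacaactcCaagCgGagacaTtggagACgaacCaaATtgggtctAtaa

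Rps27rt differed from Rps27 at 0 of 255 coding bases, and the 4 mouse libraries together placed 164 reads on RPS27 and 5341 on RPS27RT. Rps27l differed at 61 bases (76.1% identity) and Rpl39l differed from Rpl39 at 23 of 156 bases (85.3% identity). Each 125-base window of the transcript of a mouse member, the length of a read, was looked up in the transcripts of all other genes. Of 80 members with a protein-coding transcript, 68 shared at least 1 window with another gene, and the share of windows reached 98.2% for Rps27 and 91.3% for Rpl10. The 12 members with no shared window had a median of 7986 reads per kilobase over the 4 libraries, the 68 others 490.5, and the 24 members with at least 50% of windows shared 299.3. Spearman's rho between the share and the reads per kilobase was -0.50 over 80 members, which share libraries and are not independent. The values of members with shared windows are therefore uncertain as levels, and whether the shared sequence sets them was not tested.

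**Figure D1:**
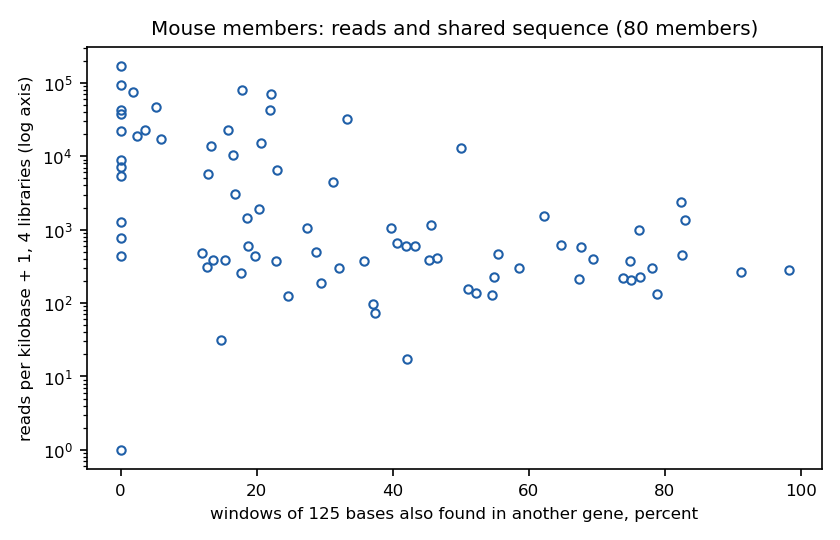
Reads per kilobase of exon (plus 1, log axis, 4 libraries summed) against the percent of 125-base windows also found in another gene, for 80 mouse members. Members with no shared window run from 0 reads (RPL10L) to 168272 per kilobase (RPL32), and the member with the largest share, RPS27 at 98.2%, had 285.2.

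Counted levels ran over several orders of magnitude within each species, unlike the near equal amounts in the ribosome. Per kilobase of exon, RPS21, a small subunit protein, was highest in macaque at 3469 CPM per kilobase, followed by RPL23 at 3172, and RPL3L was lowest at 0.209. In mouse RPL32 led with 2777 CPM per kilobase, and RPL10L, whose transcription is known from the testis, had no read. In rat RPS4X led with 3017 CPM per kilobase, and 7 members were listed at 0 in both libraries, RPL35A, RPL7A, RPL8, RPLP2, RPS19, RPS6 and RPS9. The median member stood at 15.9 CPM per kilobase in macaque, 9.96 in mouse and 26.9 in rat. The 5 members with the most reads held 97.3% of member reads in macaque, 50.3% in mouse and 49.0% in rat.

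As a share of all reads on named genes, the members took 0.771% in G1, 0.979% in G3 and 0.719% in T1 of macaque calvaria, against 0.826% in G2, 0.775% in G4 and 0.672% in T2 of tibia. The means were 0.823% ± 0.137 (SD, n = 3) and 0.757% ± 0.0786 (SD, n = 3), and the sites overlapped. With every row that named a ribosomal protein the shares were 5.18%, 6.75% and 5.02% against 5.36%, 5.24% and 4.78%, and G3 stood highest in both counts. In mouse the members took 1.27% in M4 and 1.49% in M8 of calvaria and 1.24% in M5 and 1.31% in M7 of tibia, which again overlapped. The rat libraries gave 2.02% in calvaria and 2.29% in tibia, without replicates.

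**Figure D2:**
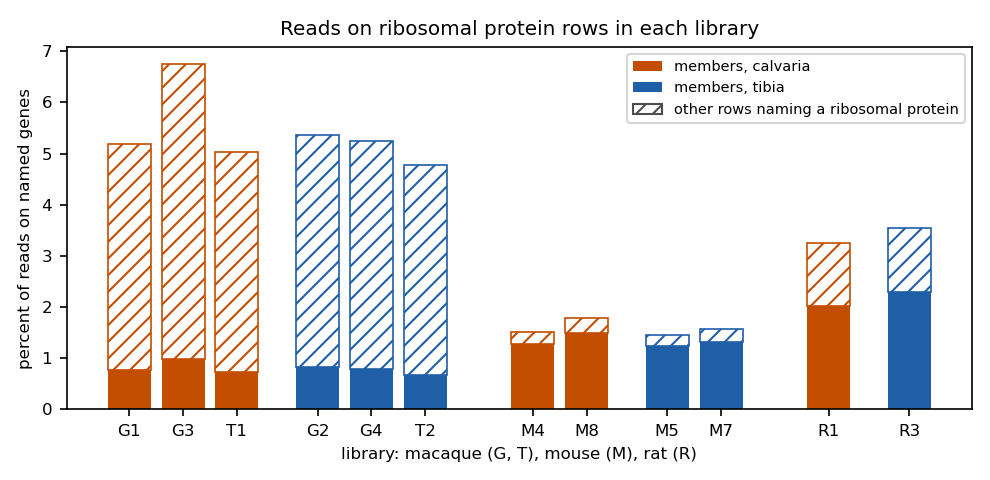
Percent of the reads on named genes that fell on members (filled) and on other rows naming a cytosolic ribosomal protein (hatched), for each of the 12 libraries, calvaria in orange and tibia in blue. The members' share overlaps between the sites in macaque and in mouse, and most macaque ribosomal protein reads stand on other rows.

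In macaque a few members passed the test, and all on the calvarial side. Of 18 members tested, 4 were called higher in calvaria (RPS9, RPS3, RPS20, RPS21) and 0 higher in tibia, at a false discovery rate (FDR) under 0.2 and a fold change over 1.1 by the quasi-likelihood test of edgeR. Among the 13094 symbols tested, 14.8% were called higher in calvaria and 14% higher in tibia, so that 4 of 18 is close to the background. All 18 fitted log2 fold changes lay above 0, between 0.03 and 0.91, where 49.9% of all symbols did, and their median was 0.38 beside -0.00 for all symbols. The members share libraries and are not independent. Per library, the median over members of log2 CPM minus each member's mean was 0.067, 0.436 and 0.045 in G1, G3 and T1. It was 0.049, -0.134 and -0.367 in G2, G4 and T2, so the sites overlapped at T1 and G2. Its SD between libraries of a site was 0.21. Without G3 or without T2, 14 of 18 members lay above 0, and 16 to 18 without any other library. The 10 small subunit members had a median of 0.48 and the 8 large subunit members tested 0.18, a difference that was not tested.

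RPS9 had 39.3, 61.4 and 72.6 CPM in calvaria libraries G1, G3 and T1 and 33.0, 40.4 and 41.0 in tibia libraries G2, G4 and T2. G1 lay among the tibia values and the other 2 above them, with a log2 fold change of 0.60 ± 0.23 (SE, adjusted p = 0.115). RPS3, which lies at the mRNA entry of the small subunit and also acts in DNA repair, had 927.7, 1243 and 1207 CPM in calvaria and 836.4, 690.9 and 934.6 in tibia. The sites overlapped at G1 and T2, and the log2 fold change was 0.46 ± 0.19 (SE, adjusted p = 0.140). RPS20, a protein of the small subunit head, had 118.9, 82.2 and 92.1 CPM in calvaria and 75.3, 78.2 and 64.6 in tibia. It was the only one of the 4 without overlap, at a log2 fold change of 0.43 ± 0.18 (SE, adjusted p = 0.144). RPS21 had 1261, 2152 and 1561 CPM against 1131, 1126 and 1282, overlapping at G1 and T2, and a log2 fold change of 0.49 ± 0.21 (SE, adjusted p = 0.156).

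The next members by p did not pass. RPSA, a small subunit protein that also serves as the laminin receptor, had 11.96, 7.44 and 12.3 CPM in calvaria and 9.26, 5.49 and 5.72 in tibia, a log2 fold change of 0.63 ± 0.34 (SE, adjusted p = 0.262). With the 3 presumed animals as a replicate block RPSA was called too, at 0.64 ± 0.29 (SE), and the 4 other calls remained. The block also raised the calls over all 13094 symbols, from 1937 to 2473 higher in calvaria and from 1836 to 2402 higher in tibia. RPL23, a large subunit protein that can bind MDM2, had 1888, 2555 and 1953 CPM against 1661, 1640 and 1800, with no overlap and a log2 fold change of 0.33 ± 0.18 (SE, adjusted p = 0.276). In all, every calvaria library lay above every tibia library for 4 of 18 members, RPL23, RPS13 and RPS20 among them, where 16.5% of all symbols did so, and the reverse held for 0 members, where 15.8% of all symbols did. No member fell in calvaria.

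**Figure D3:**
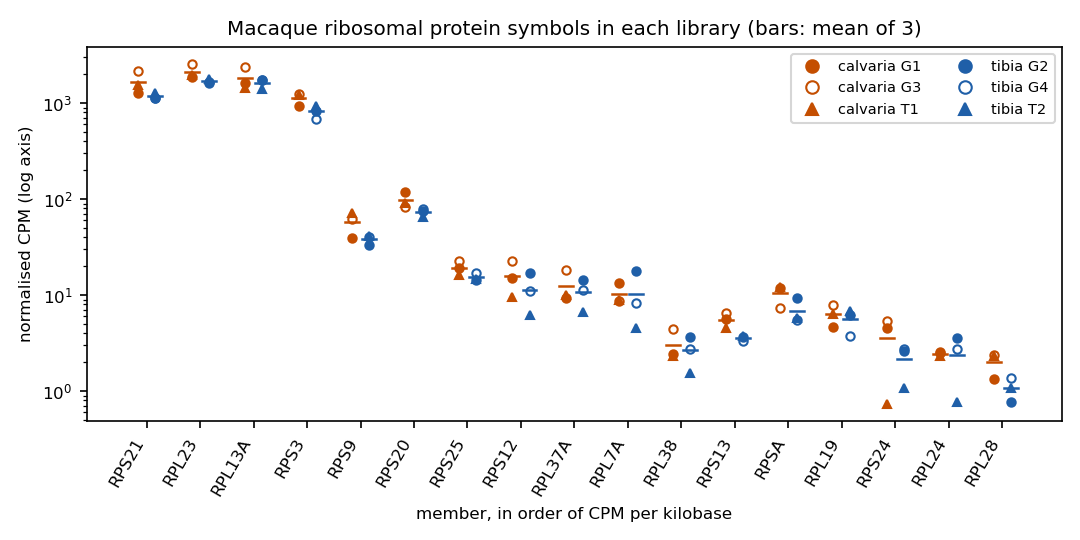
Normalised CPM (log axis) of 17 of the 18 macaque members tested in each of 6 libraries, calvaria in orange and tibia in blue, with a bar at the mean of 3 libraries. The members span from RPL28, with means of 2.01 and 1.07 CPM, to RPL23, with means of 2132 and 1700 CPM, and 14 overlap between the sites.

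These calls changed with single libraries and with the scaling, and so did those over all symbols, 1937 of 13094 in the main fit. Without T1 or without G2 no member was called higher in calvaria, where 1413 of 13200 and 1086 of 13225 symbols were. Without G4 1 was, where 1370 of 13463 symbols were, and without G3 2 were, where 1495 of 13379 were. The members' median was 0.22 without G3. With library size in place of TMM factors no member was called, where 1265 of 13094 symbols were called higher in calvaria. The members' median was then 0.17 and that of all symbols -0.21. A change of scaling moves all symbols by nearly the same amount, so the distance between these medians is no check on the members. Of 18 members, 12 remained above 0. Calvaria libraries also carried more transcripts of marrow cells. The 6 neutrophil genes measured were all higher in calvaria, 5 of them called, and summed to 37254 to 61837 CPM in calvaria and 7584 to 15458 in tibia. The 3 erythroid genes measured were all called higher, with sums of 1772 to 2355 against 332.6 to 535.3 CPM, and 3 of 5 B and T cell genes tested were called higher, with sums of 59.8 to 66.3 against 23.1 to 30.1. Heat shock genes were called higher in 4 of 6, with sums of 8550 to 12871 against 4933 to 5749 CPM, and 1 of 6 osteoblast genes was called, higher in tibia, with overlapping sums of 52405 to 90585 and 37826 to 137767. The part of these lists in the members' values was not tested.

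The members are short, and in macaque the median of short genes lay higher in calvaria than that of long genes. Over all 13094 symbols, log2 fold change and exonic length had a Spearman's rho of -0.22 across genes, and the median log2 fold change went from 0.28 in the decile of symbols with the shortest exons to -0.24 in the decile with the longest. The tested members were 289 to 1602 bases long (median 702 bases, against 2238 for all symbols), with 10 in the shortest decile and 7 in the second. In the shortest decile the members' median was 0.32 beside 0.28 for all its symbols, and in the second 0.46 beside 0.18. Among all symbols of these 2 deciles 18.6% and 19.8% were called higher in calvaria. Of the 18 members, 12 lay above the median of their own decile and 6 below. With a length offset fitted per library the members' median was 0.16, and 12 of 18 were above 0. None was called, where 1789 of 13094 symbols were called higher in calvaria, and 0 were at an unadjusted p under 0.05 in edgeR.

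**Figure D4:**
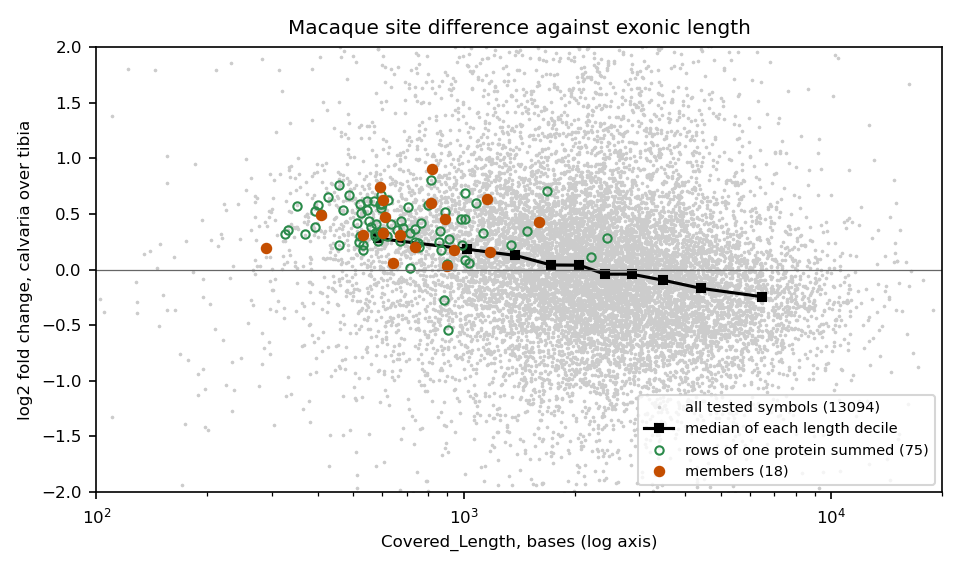
Macaque log2 fold change of calvaria over tibia against exonic length (log axis) for all 13094 tested symbols (grey), the 18 members (orange), and 75 ribosomal proteins with all their rows summed (green), with the median of each length decile (black). The black line falls from 0.28 to -0.24, and the members lie at its short end, 12 above and 6 below the median of their decile.

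When all rows naming the same protein were summed, an alternative added after the data had been seen, 75 macaque proteins could be tested and 25 were called higher in calvaria (33.3%), where 15.1% of all symbols were. No protein was called higher in tibia, where 14.2% of symbols were. Their median was 0.38, with 73 of 75 above 0, and the range was -0.54 (RPL6) to 0.80 (RPL29). RPLP1, one of the acidic stalk proteins that recruit elongation factors, had the smallest p, with 565.3, 731.6 and 717.5 CPM in calvaria and 417.0, 386.7 and 461.9 in tibia, no overlap, and a log2 fold change of 0.67 ± 0.17 (SE, adjusted p = 0.0243). RPL35, a protein at the exit tunnel, had 587.3, 954.3 and 622.0 CPM against 436.5, 347.0 and 496.7, again without overlap, and 0.76 ± 0.22 (SE, adjusted p = 0.0438). Both were picked after their values were seen. Of the 69 proteins within the 2 deciles of symbols with the shortest exons 23 were called, beside 20.3% of all symbols in them. With the length offset the count went to 4 higher in calvaria (RPL29, RPL35, RPLP1, RPS14) and 2 higher in tibia (RPL6, RPSA), where 13.9% and 13.2% of all symbols were called, and the median to 0.15. RPSA thus lay higher in calvaria on its symbol row (0.63) and higher in tibia over its 29 rows (-0.28), and neither passed the test without the offset or the replicate block.

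In mouse no member passed the test in either direction. Of 79 members tested 0 were called, where 0.00597% of 16740 symbols were called higher in calvaria and 0.0777% higher in tibia. At an unadjusted p under 0.05 there were 6 members, 5 of them higher in calvaria, beside 7.5% of all symbols. DESeq2 and edgeR's exact test each called 1 member, RPS21, higher in calvaria. Of 16740 symbols DESeq2 called 122 higher in calvaria and 312 in tibia, and the exact test 117 and 322. The fitted log2 fold changes ran from -0.78 to 1.15 with 61 of 79 above 0, as 54.9% of all symbols were, and the median was 0.25 beside 0.05 for all symbols. Both calvaria libraries lay above both tibia libraries for 35 members, where 20.1% of all symbols did so, and below for 5, where 20% did. The medians were 0.21 for 32 small subunit and 0.28 for 47 large subunit members.

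RPS21 had 74.4 and 56.2 CPM in M4 and M8 of calvaria and 29.1 and 37.4 in M5 and M7 of tibia, without overlap, at a log2 fold change of 0.98 ± 0.25 (SE, adjusted p = 0.512). Its symbol row held 6.67% of the reads that named the protein, and a LOC row held 41400 reads. Over all rows of the protein the log2 fold change was 0.26 ± 0.25 (SE, adjusted p = 0.796). RPS10, a small subunit protein mutated in Diamond-Blackfan anaemia, had 7.83 and 7.78 CPM against 4.19 and 3.21, a log2 fold change of 1.07 ± 0.36 (SE, adjusted p = 0.626). RPSA had 229.6 and 251.0 CPM against 153.5 and 170.7, or 0.57 ± 0.20 (SE, adjusted p = 0.634). RPL13A, a large subunit protein also known from the interferon-activated silencing complex, had 99.0 and 114.0 CPM against 77.2 and 72.9, or 0.50 ± 0.19. RPL31 had 23.7 and 29.6 CPM against 15.5 and 18.7, and RPS26, near the mRNA exit of the small subunit, 161.3 and 107.1 against 78.7 and 94.3. None of these overlapped between the sites and none passed the test.

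On the tibial side RPS4X, an X-linked small subunit protein, had 220.5 and 259.1 CPM in calvaria and 446.3 and 377.9 in tibia, with a log2 fold change of -0.78 ± 0.22 (SE, adjusted p = 0.559). All reads that named this protein stood on its symbol row. RPS4L, listed by GENCODE as a transcribed processed pseudogene, had 44 and 15.1 against 48.9 and 52.8, or -0.78 ± 0.49. For these 2 genes both calvaria libraries lay below both tibia libraries. The mouse result rested on its replicates: without M4 22 members were called higher in calvaria and 8 in tibia, where 20.5% and 21.5% of symbols were called, and without M8 12 and 2, where 9.95% and 9.46% were, with the lone calvaria library then assumed to vary like the tibia libraries. Neutrophil genes, all 8 higher in calvaria and none called, summed to 92245 and 122051 CPM in calvaria and 56783 and 64203 in tibia. The summed level of the osteocyte list, given with the samples, was lower in calvaria than in tibia, with none called. The sums overlapped between the sites for erythroid, osteoblast and heat shock genes and lay lower in calvaria for B and T cell genes: they were 987.4 and 2776 against 1338 to 1464 CPM for erythroid genes, 263.2 to 298.9 against 308.9 to 321.9 for B and T cell genes, 22052 to 49379 against 21408 to 30963 for osteoblast genes, and 470.6 to 731.6 against 612.4 to 674.9 for heat shock genes, with none called.

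In mouse the median was raised mainly in the decile with the shortest exons, without the steady fall seen in macaque. It was 0.08 in the second decile and between 0.00 and 0.06 in the longer ones. Of the 79 members, 52 were in the decile of symbols with the shortest exons, whose median was 0.24, and those members had a median of 0.26. The rho across all symbols was -0.09, and with the length offset the members' median was 0.13 and 50 of 79 were above 0. With all rows of a protein summed, 80 proteins were tested and 0 called, where 0.00598% of symbols were called higher in calvaria and 0.0777% in tibia, 7 had an unadjusted p under 0.05, and the median was 0.27.

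The difference between the macaque and the mouse site effect was tested itself over 10 libraries for the 18 members with reads in all of them. None passed at FDR under 0.2, where 6.68% of 6440 symbols did, none had an unadjusted p under 0.05 in edgeR's test, and 1 had in DESeq2 without passing. With all rows of a protein summed 3 of 74 proteins passed, where 6.83% of 6496 symbols did. Of the 15 members with a value in each of 3 species, 12 lay above 0 in both macaque and mouse.

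**Figure D5:**
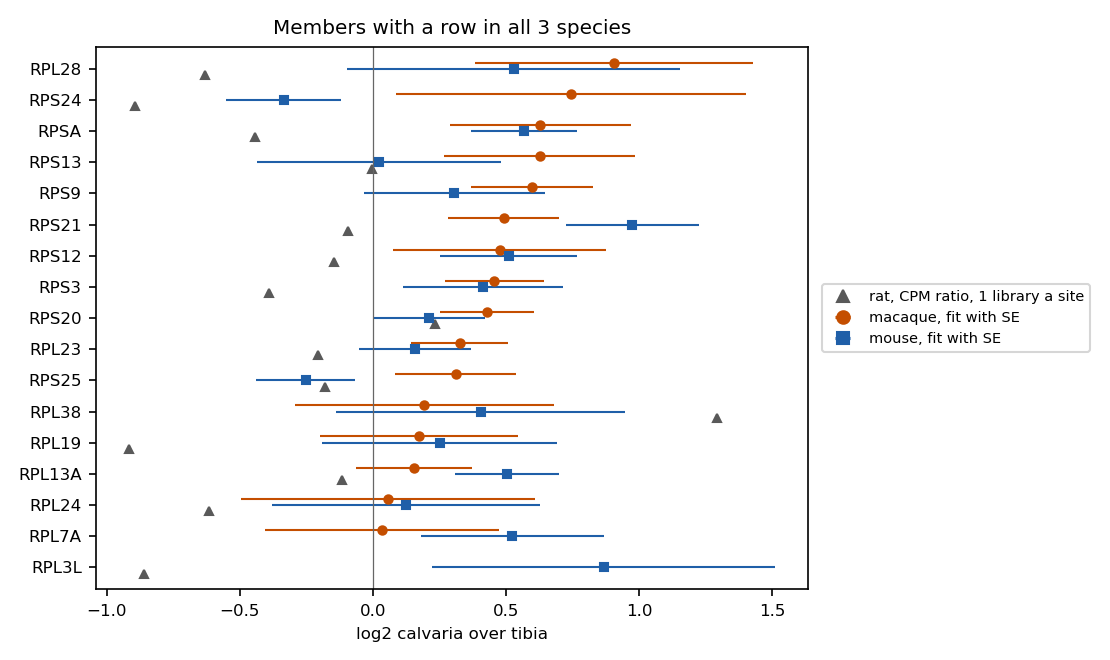
Log2 calvaria over tibia of 17 of the 18 members with a row in all 3 species, with the SE of the fit for macaque (circles) and mouse (squares) and the ratio of 1 library a site for rat (triangles, no error). Macaque values lie above 0 for every member with one, mouse values for all but RPS24 and RPS25, and rat values mostly below 0 under this scaling.

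The rat sites had 1 library each, so the values have no replicate check. Of 73 members with a read in both libraries, 0 lay past a log2 ratio of 2 towards calvaria and 1 past it towards tibia, where 0.564% and 5.94% of 16671 symbols did. The median ratio of the members was -0.12 beside -0.28 for all symbols, and 24 of 73 were above 0. With TMM factors the medians were 0.17 and 0.01 and 53 of 73 members were above 0, so the direction of the family in rat depends on the scaling. With 1 library a site, a change of scaling moves every ratio by the same amount. The distance of the family from all symbols therefore could not change.

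RPL39L, a paralogue of the tunnel protein RPL39, was the member past the threshold, with 11 reads in calvaria and 193 in tibia. Scaled to the library totals, that is 20.4-fold higher in tibia (exact 95% binomial interval 11.2 to 41.6, counting error only), and a log2 ratio of -4.24 with 1 read added. RPL39 itself had 148 and 160 reads on its symbol row, a ratio of -0.33. That row held 27.1% of the reads that named its protein, and over all rows, with 700 and 438 reads, the ratio was 0.45. RPL19 had 453 and 735 reads and RPS24 696 and 1111, which gave log2 ratios of -0.92 and -0.89. The RPS24 row held 4.17% of the reads that named its protein, and over all rows, with 26012 and 17281 reads, the ratio turned to 0.37, while that of RPL19 remained -0.92. At the other end RPS3A had 199 and 97 reads and a ratio of 0.81, RPS27L 1844 and 1027 and 0.62, and RPL10A 192 and 125 and 0.39. The RPS3A row held 0.796% of its protein's reads, and over all rows, with 20794 and 16395 reads, the ratio was 0.12, while over all rows RPL10A was at 0.51 and RPS27L, which had no other row, stayed at 0.62. These are the 3 lowest and 3 highest of the 60 members with at least 100 reads. The rat tibia library also held the muscle list (ACTA1, CKM and others) at 712.6 CPM against 8.42 in calvaria, and the neutrophil sums were 80568 CPM in calvaria and 43801 in tibia. Erythroid sums were 9314 and 4737 CPM in calvaria and tibia, B and T cell sums 309.1 and 457.2, osteoblast sums 9960 and 5456, and heat shock sums 689.0 and 566.7. Their part in the members' ratios was not tested.

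The paralogues RPL3L, RPL10L, RPL39L, RPS27L and RPS4L were counted apart from their partners. RPL3L, which replaces RPL3 in ribosomes of striated muscle, had 5, 8 and 3 reads in macaque calvaria and 0 in the 3 tibia libraries, where 0 allows up to 3 reads a library. The filter kept it out of the test. Without the filter it was called higher in calvaria on these 16 reads, where 1943 of 18894 symbols were. In mouse it had 19.9 and 15.9 CPM in calvaria and 3.85 and 15.9 in tibia, against 10.6, 11.1, 9.29 and 6.63 CPM for RPL3, so that M8 and M7 agreed to 3 digits. The muscle list summed to 1263 and 772.0 CPM in M4 and M8 and to 207.0 and 1075 in M5 and M7, with M5 lowest in both. In macaque that list summed to 0.846 to 2.27 CPM in calvaria and 3.69 to 6.18 in tibia, and the 1 gene of it tested was called higher in tibia. In rat RPL3L had 103 and 161 reads and RPL3 6642 and 6248.

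RPL39L in mouse had 13.5 and 4.73 CPM in calvaria and 11.96 and 12.2 in tibia, and the calvaria libraries lay on either side of the tibia. RPL39 had 10.97 and 8.77 CPM against 6.63 and 6.77. RPS27L, a p53 target, had 106.5 and 84.2 CPM in mouse calvaria and 76.6 and 84.2 in tibia, and 129.4 and 84.0 CPM in rat. The symbol RPS27 had 1.54 to 4.12 CPM in mouse but held only 2.98% of its protein's reads, and all its rows together had 63.6 to 126.1. RPL10L had 31 and 54 reads in rat beside 337 and 382 on the RPL10 symbol row. That row held 9.48% of the reads that named RPL10, which had 3907 and 3679 over all rows. In mouse RPL10 had 2.52 to 5.16 CPM. RPS4L in mouse was below RPS4X in every library.

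Genes around the ribosome were read from lists. Ribosomal proteins under other names (FAU and RACK1 or GNB2L1 among them) had 3 rows each in mouse and rat with none past the thresholds and medians of 0.50 and -0.01. In macaque no gene of this list could be tested. Divergent paralogues (RPL7L1, RPL22L1, RPL26L1, RPL36AL) had no macaque row, and their medians were 0.39 in mouse over 3 genes and 0.13 in rat over 2, none past the thresholds. Translation factors and other 5' TOP mRNAs had a median of 0.28 over 13 genes in macaque, with 2 called higher in calvaria and 1 in tibia, where 14.8% and 14% of all symbols were called. NAP1L1, a histone chaperone, rose in calvaria by 0.44 ± 0.15 (log2, SE, adjusted p = 0.0934) and PABPC1, the poly(A) binding protein, by 0.35 ± 0.16, while VIM, the filament vimentin, fell by 0.47. EEF1B2, an elongation factor subunit, was at 0.54 ± 0.26 and did not pass. In mouse the median was 0.05 over 15 genes and in rat -0.03 over 14.

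Ribosome biogenesis genes had a median of 0.16 over 20 macaque genes, with 3 called higher in calvaria and 1 higher in tibia, against the same background. RRP12, for export of subunits, was at 0.94 ± 0.25 (SE, adjusted p = 0.0322), BYSL and LTV1, of small subunit assembly, at 0.88 ± 0.30 and 0.39 ± 0.16, and TCOF1, which serves ribosomal RNA transcription, at -0.60 ± 0.14 (SE, adjusted p = 0.0221). No gene of the list was called in mouse (median 0.13 over 29) or passed the ratio in rat (median -0.17 over 27). Of 6 mTOR and LARP1 regulators tested in macaque, MYC was called higher in calvaria, with 258, 195 and 157 reads in G1, G3 and T1 and 101, 100 and 84 in G2, G4 and T2 and a log2 fold change of 1.29 ± 0.26 (SE, adjusted p = 0.00947). RPS6KB1, an S6 kinase, and TSC1, a brake on mTOR, were called higher in tibia at -0.43 ± 0.15 and -0.56 ± 0.21, and RPS6KB2 at 0.78 ± 0.46 did not pass. The list's medians were -0.01 in macaque, 0.12 over 15 genes in mouse and -0.07 over 15 in rat, with none past the thresholds in the rodents.

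Mitochondrial ribosomal proteins, which form a separate ribosome encoded outside the rule, had a median of 0.24 over 44 macaque genes, with 35 above 0, 7 called higher in calvaria and 1 higher in tibia, where 14.8% and 14% of all symbols were called. MRPS12 was at 0.91 ± 0.27 (SE, adjusted p = 0.0518), MRPS15 at 0.57 ± 0.17, MRPS18C at 0.77 ± 0.27 and MRPS25 at 0.60 ± 0.24. Their medians were 0.18 over 73 genes in mouse and 0.00 over 71 in rat, with none past the thresholds.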

How the data were processed

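Poly(A) RNA of 12 libraries was sequenced as single reads of 125 bases. The authors mapped the reads with HISAT2, per the methods (the processing notes of the submitters list BWA 0.7.10-r789, HTSeq and edgeR 3.16.5), and counted them without strand on merged exons (mm10, rn6, MacaM). The deposited tables hold raw counts per gene, with no normalization or filter, and an exonic length; normalized columns were not used. The depth of each library is the number of its counted reads, and intervals cover counting error only.

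Rows of 1 symbol, in upper case, were summed. Rows naming no gene (0.00261% to 0.0663% of reads) were left out. Each replicated species was fitted on its own in edgeR 4.0.16 (R 4.3.3; TMM, quasi-likelihood test) on symbols with a read in every library, with Benjamini-Hochberg adjustment over all of them. The SE is the log2 fold change divided by the root of F. TMM factors were 0.882 to 1.13 in macaque and 0.942 to 1.05 in mouse. Rat ratios had 1 read added.

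The fits were tested on simulated data. Named were the 6 members with the smallest p towards calvaria and 3 towards tibia in macaque and mouse, the 3 highest and lowest rat ratios from 100 reads, the members with most and fewest reads per kilobase, 5 paralogues with partners, and up to 4 genes of each pathway list by macaque p. Members and lists were chosen with earlier results of these data known. Both sites came from the same animals, but no label names the pairs. For G1 with G2, G3 with G4 and T1 with T2 the deviations from the site means correlated at 0.14, 0.23 and 0.37 over 13094 symbols, and these pairs were used as a replicate block in an alternative fit. Other alternatives were scaling, filters, DESeq2, the exact test, FDR under 0.05, a length offset, leaving out each library and, added after the data were seen, summing rows of 1 protein. Genes that meet these rules but are not reported here are left out of the text and of labelled plots.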

Additional observations from a re-analysis of the deposited data

Results flagged for a closer look

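With all rows of a protein summed, an alternative added after the data were seen, the site effect of 3 of 74 proteins differed between macaque and mouse at FDR under 0.2 in edgeR's interaction test, where 6.83% of 6496 symbols did. RPS4X differed by 0.97 ± 0.30 (log2, macaque minus mouse, SE, adjusted p = 0.155), with 0.22 in macaque and -0.78 in mouse. RPSA differed by -0.88 ± 0.27 (SE, adjusted p = 0.155), with -0.28 in macaque and 0.57 in mouse. On its symbol rows alone the difference was 0.06 ± 0.36 (SE). RPS19 differed by 1.25 ± 0.42 (SE, adjusted p = 0.194), with 0.51 in macaque and -0.78 in mouse. In mouse its symbol row held 30 reads over 4 libraries and a pseudogene row 190. The mouse symbol row alone had the opposite sign, at 0.79 ± 0.70 (SE). In macaque RPS4X and RPS19 have LOC rows only, and RPSA has 29 rows.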

How the results depend on the processing

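The macaque count of 4 members called higher in calvaria became 0 with library size alone, 0 at FDR under 0.05, 0 with the length offset and 25 of 75 with all rows of a protein summed. Over all 13094 symbols the count was 1937 in the main fit, 1265 with library size alone, 892 at FDR under 0.05 and 1789 with the length offset. The member count stayed within 1.5 times 4 under RLE factors, TMM factors without the members, filterByExpr, the symbols of all 3 species, DESeq2 and the exact test. It also did so with no filter (5 of 19), where RPL3L was added, with reads in calvaria libraries only. The same held with the letter of the library label as a covariate, though no label says what the letter marks, and in the letter G libraries alone. The replicate block called 5 of 18 and kept the 4. Over all symbols these settings called 1094 of 7504 (symbols of all 3 species) to 2473 of 13094 (replicate block) higher in calvaria, and 1943 of 18894 with no filter. Leaving out 1 macaque library gave 0 to 4, where 1086 to 2551 of all symbols were called higher in calvaria. The count higher in tibia was 2 in place of 0 only with rows summed and the length offset. The macaque median of 0.38 moved to 0.16 with the length offset, or 0.15 with rows summed as well, and stayed above 0 under every setting. The rho of fold change and length was -0.0195 with the length offset and -0.23 to -0.18 when 1 library was left out. The difference in the members' share of reads, 0.065 percentage points, was 0.183 with median-of-ratios factors.

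In mouse 1 member (RPS21) was called higher in calvaria with no filter, 1 with DESeq2 and 1 with the exact test, and leaving out 1 library gave 0 to 22 higher in calvaria, 0 to 8 higher in tibia and medians of 0.14 to 0.35. The mouse median was 0.17 with library size alone, 0.33 over the symbols of all 3 species, 0.13 with the length offset and 0.12 with rows summed as well. No replicate block, for either assumed pairing of the mouse libraries, called a member. The interaction called 3 proteins with rows summed and 0 members otherwise. For a rat log2 ratio of 1 in place of 2 the share of all symbols is not given, so the member count shows nothing particular to the members. In rat 5 members passed this ratio. RPL38, RPS29 and RPS7 did so towards calvaria and RPL10L and RPL39L towards tibia, all but RPL39L on under 100 reads. The median rat ratio of -0.12 became 0.17 with TMM factors. The cause of these shifts was not tested. Depth limits the 2 macaque, 6 mouse and 21 rat members with under 100 reads over all libraries of the species.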
